A study of Mus musculus with 15 samples.

Results

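The question here was whether a short hairpin RNA label, shBCLAF1, went with the same expression differences in 2 mouse pre-B lines, and which genes went opposite ways. The members are 12 RNA-seq libraries of 15 in the series, 3 in each of 4 groups, and the measure is the interaction, that is, the difference of Art_shBCLAF1 from Art minus the difference of Rag_SPIC_DOX_shBCLAF1 from Rag_SPIC_DOX. Art_shBCLAF1 cells are Artemis-deficient (Art -/-) Abelson cells with the hairpin label, and Art cells are the same line with no hairpin. Rag_SPIC_DOX_shBCLAF1 cells are Rag-deficient (Rag -/-) Abelson cells with a tetracycline-controlled SPIC construct, doxycycline (DOX) and the hairpin label, and Rag_SPIC_DOX cells have the construct and doxycycline but no hairpin. The first pair is called the Art line here and the second the Rag line. Abelson cells are pre-B cells transformed by the v-Abl kinase. All 4 groups had been kept for 48 h with imatinib, which inhibits that kinase, and all are labelled with the same passage range. The lines thus differ by genotype, by the construct and by doxycycline at once, and the share of each in an interaction cannot be told apart. No label names a control hairpin, and none says that the 3 libraries of a group came from separate cultures, so p-values measure the spread between these libraries, which may be technical.

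BCLAF1 is a nuclear protein linked to transcription and RNA processing. SPIC, SPIB and PU.1 (Spi1) are related ETS transcription factors that read similar GGAA-containing DNA, and SPIC can counter PU.1 in B cells. Pre-B cells alternate between a dividing state driven by pre-B-cell receptor, cytokine or, here, v-Abl signals and a resting state in which the RAG recombinase rearranges light-chain genes, and blocking v-Abl pushes Abelson cells to the resting state.

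Effective library sizes, in rounded numbers of reads, were 18270000 to 23030000 in Art_shBCLAF1, 5810000 to 25880000 in Art, 22670000 to 27100000 in Rag_SPIC_DOX_shBCLAF1 and 21550000 to 23180000 in Rag_SPIC_DOX. Some libraries stood apart from their group. Art replicate 3 was the shallowest, with 145 of 11551 genes at 0 reads against 19 to 56 elsewhere. It differed from Art replicates 1 and 2 by 0.94 and 0.95 log2 units (root mean square over genes), the most of any pairs within a group. Rag_SPIC_DOX replicates 1 and 2 differed by 0.830, and replicate 3 of that group differed from them by 0.41 and 0.58. All pairs within a group, apart from those with Art replicate 3 and the pair at 0.830, differed by 0.24 to 0.58. All 10 B-lineage markers were measured, and they summed to 4358 to 4794 CPM (reads scaled to the effective library size) in Art_shBCLAF1, 10313 to 12165 CPM in Art, 5940 to 6157 CPM in Rag_SPIC_DOX_shBCLAF1 and 5950 to 8594 CPM in Rag_SPIC_DOX. T and NK markers, of which 4 of 11 were measured, summed to 46.4 to 56.4 CPM in Art_shBCLAF1, 122.8 to 168.4 CPM in Art, 48.9 to 54.6 CPM in Rag_SPIC_DOX_shBCLAF1 and 67.6 to 88.6 CPM in Rag_SPIC_DOX. Erythroid and megakaryocyte markers, of which 3 of 8 were measured, stayed below 14 CPM in every library. Plasma-cell markers, all 6 measured, lay between 653 and 1112 CPM. Cd3e, Cd3d, Cd3g, Cd4, Cd8a, Bcl11b, Nkg7, Gata1, Hba-a1, Hbb-b1, Alas2 and Pf4 were not analysed here, so these sums leave them out. The part of these markers' cell types in the results was not tested.

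The gene named by the hairpin label was not lower in the libraries that carry it. Bclaf1 was at 8.29, 8.35 and 8.32 log2 CPM in Art_shBCLAF1, against 7.81, 7.75 and 6.41 in Art, and at 7.99, 8.05 and 8.10 in Rag_SPIC_DOX_shBCLAF1, against 7.76, 7.69 and 7.73 in Rag_SPIC_DOX. Its values were higher with the label in both lines without overlap. By limma's test the difference passed in the Art line (0.99, adjusted p = 0.0115) but not in the Rag line (0.32, adjusted p = 0.431). The interaction of 0.68 (SE 0.41) did not pass (adjusted p = 0.229). Without Art replicate 3 the difference in the Art line was 0.54, against 0.99 in all libraries, and the interaction was 0.22 and passed (adjusted p = 0.0274). In that fit the Rag-line difference, unchanged at 0.32, also passed (limma adjusted p = 0.000389), although no Rag library had been left out. All directions below are therefore those of the libraries labelled shBCLAF1, and an effect is the mean log2 CPM with the label minus that without it, given for the Art line and then the Rag line. Spic was at 4.47, 4.34 and 4.80 log2 CPM in Art_shBCLAF1, against 0.85, 0.32 and 0.16 in Art, and at 7.50, 7.43 and 7.44 in Rag_SPIC_DOX_shBCLAF1, against 3.72, 4.59 and 4.31 in Rag_SPIC_DOX. It rose with the label in both lines, by 4.10 and 3.25 log2 units, and its interaction did not pass (0.85, SE 0.33, adjusted p = 0.075); it passed at 1.05 without Art replicate 1 (adjusted p = 0.0293) and at 1.09 without Rag_SPIC_DOX replicate 1 (adjusted p = 0.0187). Myc, a growth-promoting transcription factor, rose by 4.72 in the Art line and 3.0 in the Rag line, with an interaction of 1.72 (SE 1.11, adjusted p = 0.262). Without Rag_SPIC_DOX replicate 2 the rise of Myc in the Rag line was 1.77 and its interaction 2.95, which passed (adjusted p = 0.000423), and without Rag_SPIC_DOX replicate 1 the interaction was 0.80. Spi1 passed in neither line and not in the interaction in all 12 libraries. Without Art replicate 3 its difference passed in the Art line at 0.19 (adjusted p = 0.0276) and in the Rag line at 0.18 (adjusted p = 0.0247).

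**Figure D1:**
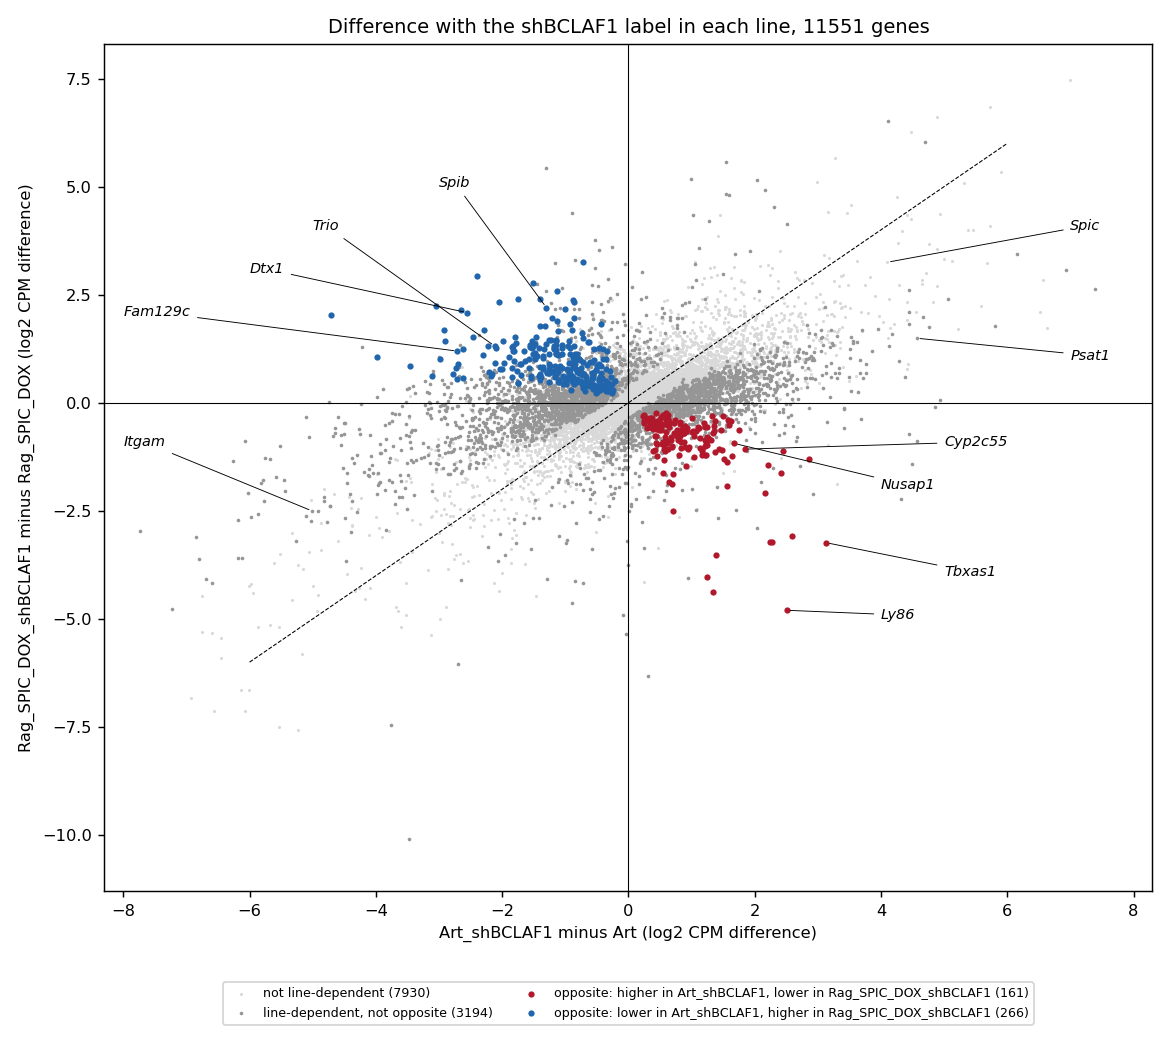
Each point is 1 of 11551 genes, placed by its log2 CPM difference in the Art line (x axis) and in the Rag line (y axis), with the line of equal differences dashed. The 161 red and 266 blue genes lie in the quadrants where the lines differ in sign, while Spic and Itgam lie where both lines share it.

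The 11551 genes are those that at least 1 of the authors' tables lists as changed, so shares over all genes are shares of these. Of them, 3621 (31.3%) had an interaction past an adjusted p of 0.05, 1652 (14.3%) above 0 and 1969 (17%) below 0. Calls of opposite sign were a minority of these line-dependent genes. In 1988 the Art line alone passed its own test and in 483 the Rag line alone, 70 passed in neither, and 653 passed in both with the same direction, 546 of them with the larger difference in the Art line and 107 with the larger in the Rag line. The Art line moved more in general: its difference passed in 6964 genes (60.3%) and had a median size of 0.655 log2 units, against 3957 genes (34.3%) and 0.378 in the Rag line. Opposite genes, defined as having all 3 tests passed and effects of opposite sign, numbered 427 (3.7%), against 2542 (22%) that passed in both lines with the same direction. Among them 161 (1.39%) were higher in Art_shBCLAF1 and lower in Rag_SPIC_DOX_shBCLAF1 than in the unlabelled cells, and 266 (2.3%) the reverse. Without Art replicate 3 the interaction passed in 6286 genes, 3071 above 0 and 3215 below 0. In that fit 1012 genes (8.76%) were opposite, among them 413 of the 427. Without Rag_SPIC_DOX replicate 2 there were 400 opposite genes (3.46%), 323 of them shared, and without replicate 3 of that group 261 (2.26%), of which 258 were shared. Without that replicate 2 the interaction passed above 0 in 2028 genes and below 0 in 2047. List counts from a fit with a library left out are to be set beside the counts over all genes in that fit.

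The 161 genes had median effects of 0.78 in the Art line and -0.70 in the Rag line, and 29 of them reached 1 log2 unit in both. In the 266 genes the medians were -0.98 and 0.82, and 72 reached 1 log2 unit in both. Values with and without the label did not overlap in either line for 160 of 161 and 262 of 266 genes, beside 44.6% of all genes, and for genes chosen by both tests this is a description and no support. The lines also traded order. Without the label, 152 of the 161 genes were lower in Art than in Rag_SPIC_DOX, and with it all 161 were higher in Art_shBCLAF1 than in Rag_SPIC_DOX_shBCLAF1. Among the 266, the order of the lines differed in 255, against 61.9% of all genes. Choosing genes by opposite effects favours such a trade of order, so this too is a description and no support. In the authors' deposited tables of the single-line comparisons, 160 of the 161 and 264 of the 266 genes are listed with these directions. Those comparisons use the same libraries and values, so the match is not independent support.

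Of the 38 lists, mitosis held the most genes that were higher in Art_shBCLAF1 and lower in Rag_SPIC_DOX_shBCLAF1. Of 43 measured, 42 rose in the Art line (31.1% of all genes rose there), 15 fell in the Rag line (15.7% of all genes fell) and none rose, and these 15 were all opposite (1.39% of all genes were opposite this way). The interaction passed above 0 in 39 of 43 and below 0 in none (14.3% and 17% of all genes), with a median of 1.72 against 0.03 over all genes. At an unadjusted p below 0.05 limma gave 41 above 0 and 0 below, and voom weights gave 40 and 0 with adjustment; for a rise in the Rag line both gave 0. Counts of opposite mitosis genes depended on single libraries, with 30 without Art replicate 3, 11 without Rag_SPIC_DOX replicate 1, 10 without replicate 2, 8 without replicate 3, and 9 without any 1 Rag_SPIC_DOX_shBCLAF1 library, whereas 38 to 43 were line-dependent when any 1 library was left out. With libraries centred on their medians or quantile-normalised, 15 were opposite. Fewer dividing cells and less of these RNAs per dividing cell cannot be told apart in bulk RNA.

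**Figure D2:**
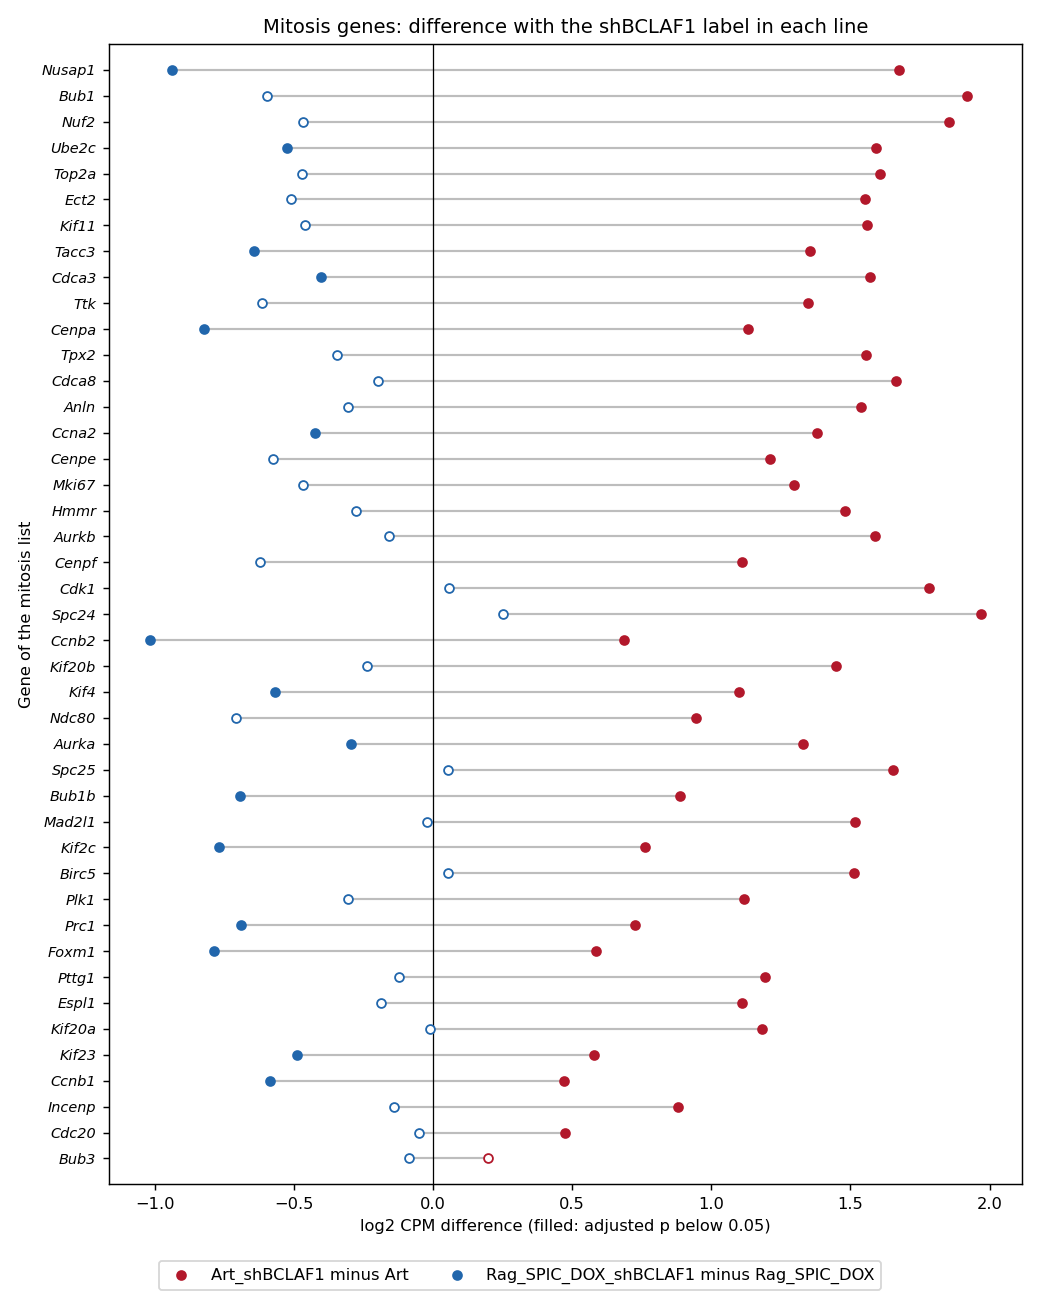
The 43 mitosis genes (rows, ordered by interaction) with their log2 CPM difference in the Art line (red) and the Rag line (blue). Filled points passed an adjusted p of 0.05; 42 red and 15 blue points are filled, and all filled blue points lie below 0.

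Bub1b (ENSMUSG00000040084), a spindle-checkpoint kinase, was at 8.47, 8.27 and 8.50 log2 CPM in Art_shBCLAF1, against 7.54, 7.54 and 7.50 in Art, and at 7.53, 7.57 and 7.53 in Rag_SPIC_DOX_shBCLAF1, against 8.22, 8.16 and 8.34 in Rag_SPIC_DOX. Art_shBCLAF1 and Rag_SPIC_DOX were thus both high, and Art and Rag_SPIC_DOX_shBCLAF1 both low, with no overlap. It rose 1.85-fold in the Art line and fell 1.62-fold in the Rag line (interaction 1.58, SE 0.13, limma adjusted p = 2.61e-05). Foxm1, a transcription factor that turns on mitotic genes and that was named after its values were seen, was at 8.17, 8.06 and 8.18 in Art_shBCLAF1, against 7.61, 7.54 and 7.50 in Art, and at 7.28, 7.33 and 7.38 in Rag_SPIC_DOX_shBCLAF1, against 7.96, 8.29 and 8.10 in Rag_SPIC_DOX (interaction 1.37, SE 0.14). Kif2c, a kinesin that takes apart microtubules at centromeres, was at 6.64, 6.44 and 6.54 in Art_shBCLAF1, against 5.50, 5.70 and 6.13 in Art, and at 5.63, 5.74 and 5.65 in Rag_SPIC_DOX_shBCLAF1, against 6.38, 6.39 and 6.56 in Rag_SPIC_DOX. Its difference was 1.70-fold up in the Art line and 1.70-fold down in the Rag line. These 3 genes stayed opposite whichever single library was left out.

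Nusap1 (ENSMUSG00000027306), which bundles spindle microtubules, had the largest interaction of the list (2.61, SE 0.41, adjusted p = 0.000961). It was at 7.73, 7.69 and 7.68 log2 CPM in Art_shBCLAF1, against 6.46, 6.50 and 5.12 in Art, and at 6.44, 6.49 and 6.53 in Rag_SPIC_DOX_shBCLAF1, against 7.27, 7.48 and 7.54 in Rag_SPIC_DOX. Neither pair of groups overlapped, and Art replicate 3 was the lowest library. Without Rag_SPIC_DOX replicate 2 its fall of 0.92 in the Rag line no longer passed (adjusted p = 0.0757). The same held for Cenpa, the histone H3 variant of centromeres (adjusted p = 0.112), with effects of 1.13 in the Art line and -0.82 in the Rag line in all libraries. With each of the 12 libraries left out in turn, Nusap1 met all 3 tests 7 times and Cenpa 3 times. Cyclin B2 (Ccnb2), also named after its values were seen, differed by 0.69 and -1.01, and it no longer passed in the Art line when libraries were centred on their medians. Outside the list, Ckap2l, Cep55 and Prr11, which act in spindle formation or cell separation, had interactions of 2.23, 2.13 and 2.07 and the same pattern of signs.

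The cell-cycle homology region, TTTGAA, lies in promoters of many genes expressed late in the cell cycle, and 3 such promoters are shown because mitosis genes moved together. They run 5′ to 3′ from 250 bases before to 50 after the start in RefSeq GRCm38.p6, with capitals marking TTTGAA and GAGGAA, the core of the letters GAGGAAGT bound by PU.1 and its relatives, on either strand (TTCAAA and TTCCTC on the other). Bub1b lies at chr2:118597961-118598260 (plus strand), Ccnb2 at chr9:70421505-70421804 (minus strand) and Cenpa at chr5:30666636-30666935 (plus strand).
Bub1b: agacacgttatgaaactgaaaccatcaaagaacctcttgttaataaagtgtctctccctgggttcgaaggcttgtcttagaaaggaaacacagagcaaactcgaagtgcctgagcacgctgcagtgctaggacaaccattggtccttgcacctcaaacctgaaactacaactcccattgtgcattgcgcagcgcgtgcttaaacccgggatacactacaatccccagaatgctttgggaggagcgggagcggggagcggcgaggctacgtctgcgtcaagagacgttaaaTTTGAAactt
Ccnb2: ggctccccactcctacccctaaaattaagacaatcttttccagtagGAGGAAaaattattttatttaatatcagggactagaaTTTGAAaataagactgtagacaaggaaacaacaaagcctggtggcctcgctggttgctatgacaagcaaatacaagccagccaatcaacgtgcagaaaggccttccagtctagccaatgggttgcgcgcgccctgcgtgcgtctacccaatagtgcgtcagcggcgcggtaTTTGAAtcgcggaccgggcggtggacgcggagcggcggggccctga
Cenpa: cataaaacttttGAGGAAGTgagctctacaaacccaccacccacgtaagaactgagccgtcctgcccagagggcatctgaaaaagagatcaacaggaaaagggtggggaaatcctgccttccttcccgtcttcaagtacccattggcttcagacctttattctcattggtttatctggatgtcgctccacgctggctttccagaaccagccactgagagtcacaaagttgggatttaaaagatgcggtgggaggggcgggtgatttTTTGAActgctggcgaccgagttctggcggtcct
In Cenpa the first capitals run on to GAGGAAGT, which contains the shorter one. The letters TTTGAA occurred in 27 of the 36 mitosis promoters found in the table (75%), in 35 of 130 promoters of genes higher in Art_shBCLAF1 and lower in Rag_SPIC_DOX_shBCLAF1 (26.9%), in 13 of 207 of the reverse (6.28%) and in 1082 of 9099 promoters of all genes tested (11.9%). GAGGAAGT occurred in 6 of 130 (4.62%), 6 of 207 (2.90%) and 293 of 9099 (3.22%) of these, and GAGGAA in 51 of 130 (39.2%), 70 of 207 (33.8%) and 2425 of 9099 (26.7%). A match is letters in a window and not a bound site.

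DNA replication genes were line-dependent too, but none was opposite (1 without Art replicate 3). Of 40 measured, the interaction passed above 0 in 31 and below 0 in none (14.3% and 17% of all genes), with a median of 1.31. In the Art line 39 rose (31.1% of all genes rose there). In the Rag line 9 rose (18.5% of all genes rose there), or 2 to 17 with 1 library left out. None fell in either line. At an unadjusted p below 0.05 limma gave 36 interactions above 0 and 0 below and 1 fall in the Rag line, and voom weights gave 34, 0 and 1 with adjustment. Gins1, part of the helicase complex at replication forks, was at 5.01, 4.72 and 4.92 log2 CPM in Art_shBCLAF1, against 2.30, 2.24 and 2.13 in Art, and at 4.27, 4.17 and 4.15 in Rag_SPIC_DOX_shBCLAF1, against 4.34, 3.34 and 3.89 in Rag_SPIC_DOX. The Art groups were far apart and the Rag groups overlapped (interaction 2.32, SE 0.30), although without Rag_SPIC_DOX replicate 1 its Rag-line difference was 0.58 and passed (adjusted p = 0.0231). Pole2, a subunit of the leading-strand polymerase, rose in both lines, by 4.76 and 1.76 log2 units, and in the Rag line it did not pass without Rag_SPIC_DOX replicate 2 (0.91, adjusted p = 0.055).

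Ribosome biogenesis genes, which build ribosomal subunits, rose in both lines: 47 of 48 rose in the Art line and 46 in the Rag line (31.1% and 18.5% of all genes), with medians of 1.78 and 1.26. Their interaction passed in 3 (31.3% of all genes). It passed in 10 without Art replicate 3 and in 19 without Rag_SPIC_DOX replicate 2, beside 6286 and 4075 of the 11551 genes in those fits.

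Some G1 cell-cycle regulators were also among the opposite genes. Cdkn2c (p18, ENSMUSG00000028551), an inhibitor of the G1 kinases CDK4 and CDK6, was at 6.44, 6.31 and 6.38 log2 CPM in Art_shBCLAF1, against 5.63, 5.70 and 5.51 in Art, and at 5.43, 5.45 and 5.57 in Rag_SPIC_DOX_shBCLAF1, against 5.94, 6.30 and 6.34 in Rag_SPIC_DOX. It rose 1.70-fold in the Art line and fell 1.63-fold in the Rag line without overlap (interaction 1.47, SE 0.17, adjusted p = 0.000152). Mxd3, a repressor of the MAX network, had effects of 0.83 and -0.91, and it no longer passed in the Art line after median centring or quantile normalisation. Cdkn2c and Mxd3 were the 2 opposite genes of 28 measured G1 regulators (7.14%, beside 1.39% of all genes). Among the 28 the interaction passed above 0 in 7 and below 0 in 2 (14.3% and 17% of all genes). Above 0 it passed in 11 without Art replicate 3 and in 15 without Rag_SPIC_DOX replicate 2, beside 3071 and 2028 of the 11551 genes. In repair, H2afx, the histone marked at DNA breaks, had effects of 0.91 and -0.66, and Rad51b, which acts in homologous recombination, 0.83 and -0.62; H2afx no longer passed in the Rag line without Rag_SPIC_DOX replicate 2. Of 40 break-repair genes the interaction passed above 0 in 20 and below 0 in 3 (14.3% and 17% of all genes). Without Art replicate 3 it passed below 0 in 7, beside 3215 of the 11551 genes.

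**Figure D3:**
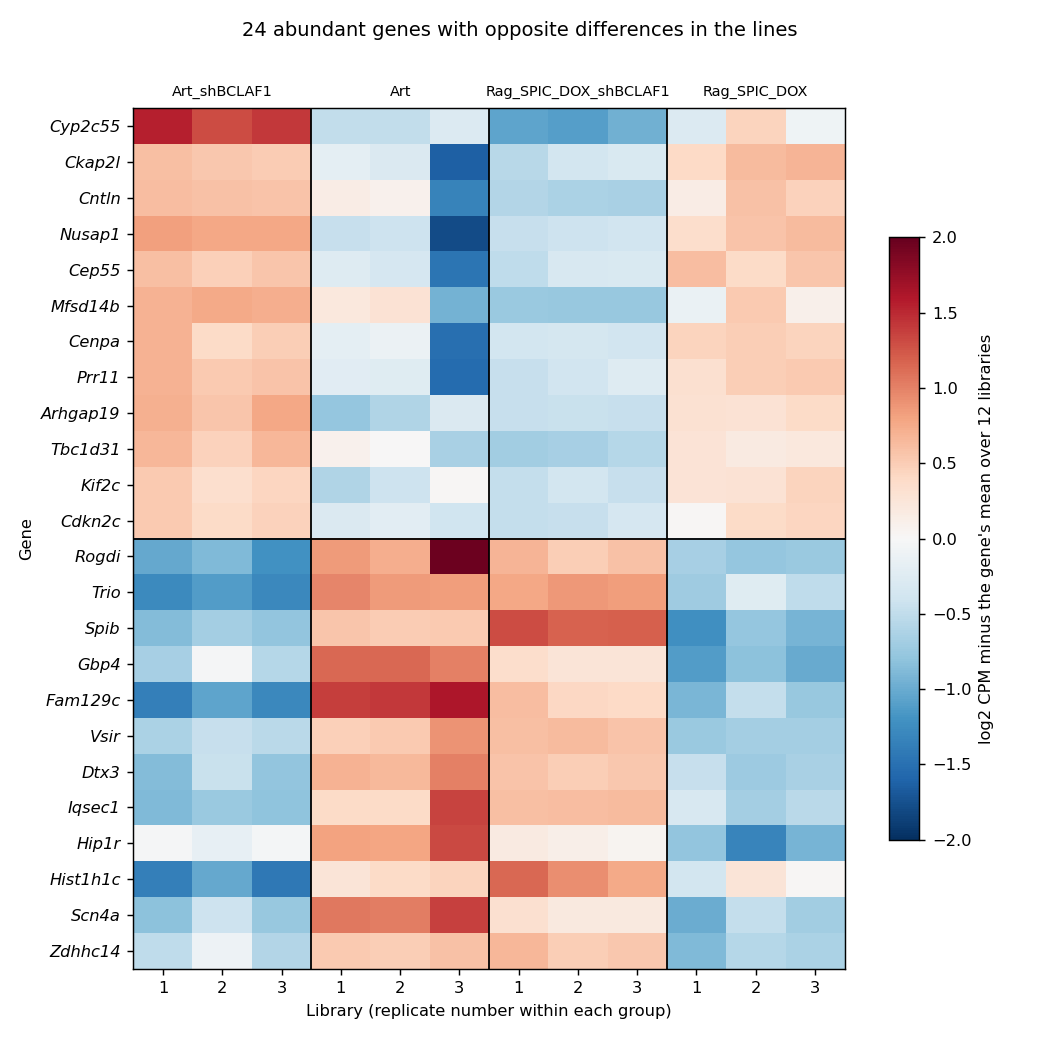
The 12 highest-ranked abundant opposite genes of each direction (rows) in the 12 libraries (columns), as log2 CPM minus the gene's mean; colours beyond 2 units are saturated. Within each line, upper genes are higher in Art_shBCLAF1 and in Rag_SPIC_DOX, lower genes in Art and in Rag_SPIC_DOX_shBCLAF1, and Art replicate 3 deviates most from its group.

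Abundant opposite genes outside mitosis included Cyp2c55, a cytochrome P450. It was at 6.81, 6.57 and 6.67 log2 CPM in Art_shBCLAF1, against 4.77, 4.78 and 4.99 in Art, and at 4.21, 4.16 and 4.30 in Rag_SPIC_DOX_shBCLAF1, against 5.0, 5.71 and 5.18 in Rag_SPIC_DOX. It rose 3.58-fold in the Art line and fell 2.10-fold in the Rag line (interaction 2.91, SE 0.23, adjusted p = 2.63e-05). Arhgap19, a GTPase-activating protein, had effects of 1.24 and -0.78, and the centriole protein Cntln 0.96 and -1.02, with 0.47 in the Art line without Art replicate 3. Of the 12 abundant genes of this direction ranked first by their smaller effect, mitosis genes included, 12 stayed opposite without Art replicate 3, 6 without Rag_SPIC_DOX replicate 2 and 5 without Rag_SPIC_DOX replicate 3.

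A low-abundance set of genes known from myeloid cells had large opposite effects. These genes were named after their values were seen. Tbxas1 (ENSMUSG00000029925), thromboxane synthase, had 42, 33 and 29 reads in Art_shBCLAF1, against 5, 2 and 1 in Art, and 5, 7 and 4 in Rag_SPIC_DOX_shBCLAF1, against 109, 19 and 50 in Rag_SPIC_DOX. That is 0.88, 0.84 and 0.69 log2 CPM in Art_shBCLAF1, against -2.23, -2.79 and -1.95 in Art, and -2.04, -1.79 and -2.59 in Rag_SPIC_DOX_shBCLAF1, against 2.24, -0.18 and 1.23 in Rag_SPIC_DOX. It rose 8.75-fold in the Art line and fell 9.42-fold in the Rag line without overlap (interaction 6.37, SE 0.73, adjusted p = 0.000162), and the Rag_SPIC_DOX libraries spread widely. S100a4, a calcium-binding protein of motile cells, Axl, a receptor kinase that senses apoptotic cells through bridging ligands, and Ccr1, a chemokine receptor, rose by 2.59, 2.27 and 2.24 log2 units in the Art line and fell by 3.08, 3.22 and 3.22 in the Rag line. The complement receptor C3ar1 rose by 1.25 and fell by 4.03. These 5 genes stayed opposite whichever library was left out, whereas Ly86, a partner of a Toll-like receptor homolog, with effects of 2.50 and -4.80 and 0 to 129 reads, met all 3 tests in 5 of those 12 fits.

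H2-Aa, an MHC class II chain, was at 4.14, 3.74 and 4.02 log2 CPM in Art_shBCLAF1, against 2.40, 2.59 and 2.76 in Art, and at 1.44, 1.63 and 2.01 in Rag_SPIC_DOX_shBCLAF1, against 6.16, 4.03 and 5.43 in Rag_SPIC_DOX. The label libraries lay above the others in the Art line and below them in the Rag line (interaction 4.89, SE 0.59, adjusted p = 0.000215). H2-Aa was the only opposite member of 24 measured antigen-presentation genes, although 6 were opposite without Rag_SPIC_DOX replicate 2. Medians of the 24 were -0.58 in the Art line and -0.50 in the Rag line. Their interaction passed above 0 in 6 and below 0 in 7 (14.3% and 17% of all genes), or 4 to 7 and 4 to 10 with 1 library left out. Fcgr3, an Fc receptor that is also on the list of PU.1 and SPIB targets, was at 5.76, 5.80 and 5.72 in Art_shBCLAF1, against 4.41, 4.49 and 4.58 in Art, and at 4.64, 4.44 and 4.50 in Rag_SPIC_DOX_shBCLAF1, against 5.37, 5.58 and 5.14 in Rag_SPIC_DOX. It rose 2.41-fold and fell 1.79-fold without overlap. The summed myeloid markers moved otherwise: the 10 of 16 markers measured totalled 95.0 to 112.7 CPM in Art_shBCLAF1, 709 to 936 CPM in Art, 68.7 to 74.2 CPM in Rag_SPIC_DOX_shBCLAF1 and 256 to 321 CPM in Rag_SPIC_DOX, lower with the label in both lines. In a second list of 11 measured myeloid genes, Fcgr3 and Fcer1g, the signalling chain of several Fc receptors (effects of 0.91 and -1.45), were opposite; Fcer1g met all 3 tests in 3 of the 12 fits and not after median centring. Of the 11, 9 fell in the Rag line (15.7% of all genes), and 4 fell and 2 rose in the Art line (29.2% and 31.1% of all genes). Mpo, Elane, Cebpa, Csf3r, S100a8 and S100a9 were not analysed here. Itgam, an integrin chain of myeloid cells, fell by 5.01 in the Art line and 2.50 in the Rag line (interaction -2.50, SE 0.34).

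Adhesion and signalling genes of the same direction were Itgb7, an integrin chain for gut homing, with effects of 2.86 and -1.31, and Jag1, a Notch ligand, with 0.94 and -1.08.

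**Figure D4:**
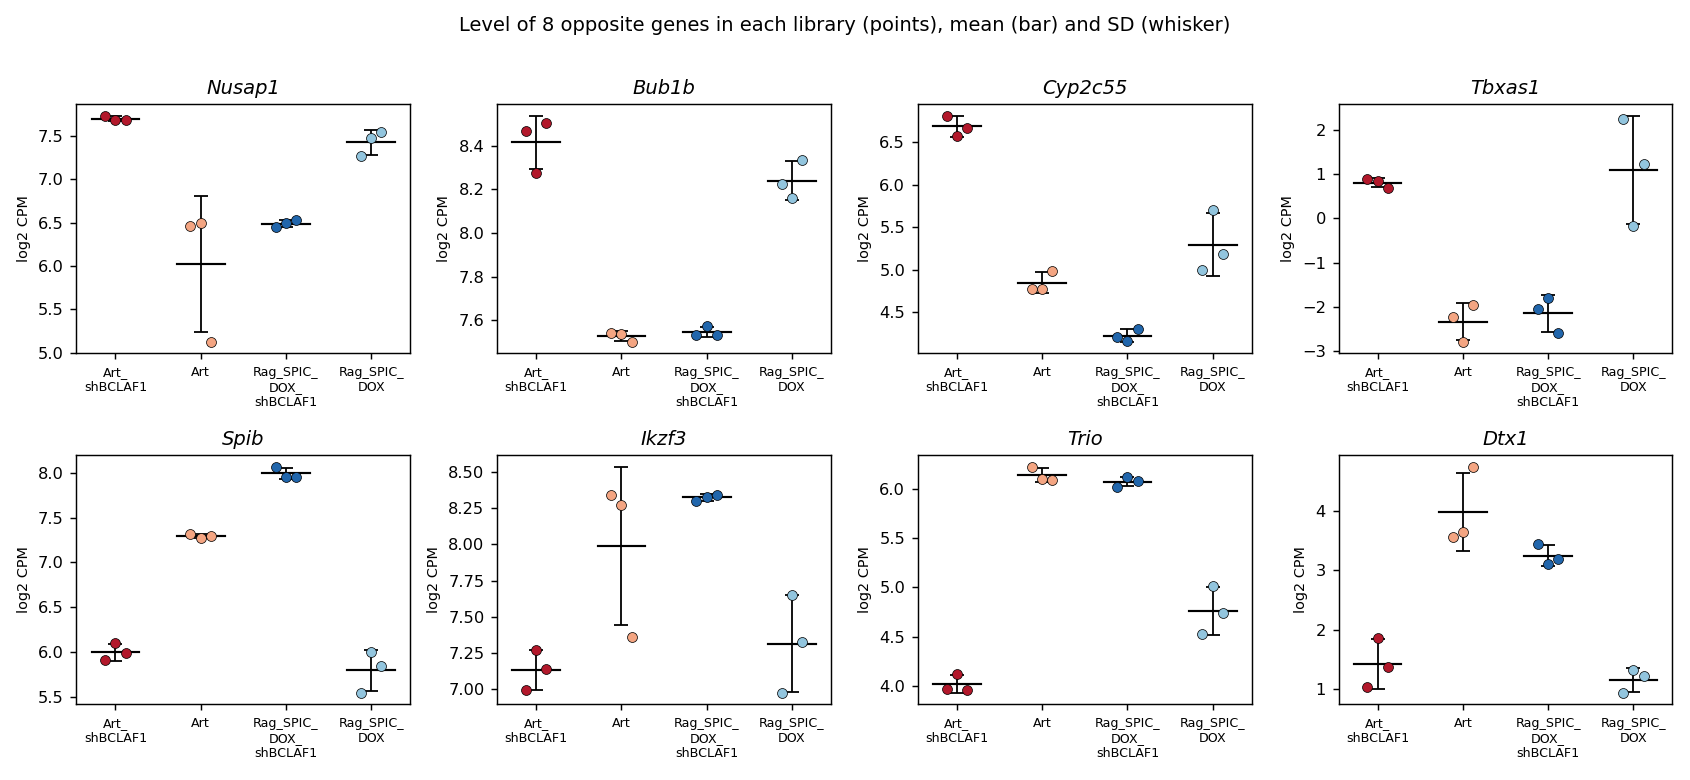
Level of 8 opposite genes (log2 CPM) in each of 12 libraries, with the group mean as a bar and the SD as whiskers (n = 3). Upper genes are highest in Art_shBCLAF1 or Rag_SPIC_DOX, and lower genes in Art or Rag_SPIC_DOX_shBCLAF1, with Ikzf3 in Art replicate 3 near the Art_shBCLAF1 values.

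The 266 genes that were lower in Art_shBCLAF1 and higher in Rag_SPIC_DOX_shBCLAF1 included transcription factors, antigen-receptor signalling genes and regulators of the cell cortex. Spib (ENSMUSG00000008193), the ETS relative of PU.1 and SPIC, was at 5.91, 6.10 and 5.98 log2 CPM in Art_shBCLAF1, against 7.32, 7.27 and 7.30 in Art, and at 8.07, 7.96 and 7.96 in Rag_SPIC_DOX_shBCLAF1, against 5.54, 6.0 and 5.84 in Rag_SPIC_DOX. It fell 2.46-fold in the Art line and rose 4.60-fold in the Rag line without overlap (interaction -3.50, SE 0.16, limma adjusted p = 1.35e-06). Its relatives had other values: Spic was higher with the label in both lines, and Spi1 differed by -0.05 and 0.18. Ikzf3 (Aiolos), which promotes the resting pre-B state, was at 7.0, 7.27 and 7.14 in Art_shBCLAF1, against 8.34, 8.27 and 7.36 in Art, and at 8.30, 8.33 and 8.34 in Rag_SPIC_DOX_shBCLAF1, against 6.97, 7.65 and 7.32 in Rag_SPIC_DOX. Art replicate 3 lay close to Art_shBCLAF1, and neither pair of groups overlapped (interaction -1.86, SE 0.34, adjusted p = 0.00238). Gfi1, a repressor that shapes lymphoid and myeloid fate and was named after its values were seen, had effects of -2.11 and 0.93. On the list of 30 PU.1 and SPIB targets, the interaction passed above 0 in 6 and below 0 in 9 (14.3% and 17% of all genes). The medians were -0.36 in the Art line and -0.21 in the Rag line, and Fcgr3 and Fcer1g were the opposite members. Of 30 B-lineage transcription factors, 2 were opposite, both this way (6.67%, beside 2.3% of all genes). The interaction passed below 0 in 6, close to the share of all genes (17%), and above 0 in 2 (14.3% of all genes). Without Art replicate 3 it passed below 0 in 12, beside 3215 of the 11551 genes in that fit. Above 0 it passed in 0 without any 1 Rag_SPIC_DOX_shBCLAF1 library, Art_shBCLAF1 replicate 1 or 3, or Rag_SPIC_DOX replicate 3. In those fits 1154 to 1232 of the 11551 genes passed above 0.

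Genes of antigen-receptor signalling shared this pattern in part. In the pre-B-cell receptor list of 30 the interaction passed below 0 in 12 and above 0 in none (17% and 14.3% of all genes). At an unadjusted p below 0.05 limma gave 2 above 0, and voom weights gave 0 with adjustment. Without Art replicate 3 the interaction passed below 0 in 16 and above 0 in 3, beside 3215 and 3071 of the 11551 genes. Without Rag_SPIC_DOX replicate 2 it passed above 0 in 2, beside 2028 of the 11551 genes. Adaptors and modulators of lymphocyte signalling that were named after their values were seen included Lax1, with effects of -2.46 and 1.53, Rasgrp2, a guanine-nucleotide exchange factor for Rap GTPases (-0.91 and 0.93), Ptprcap, a partner of CD45 (-0.58 and 0.94), and Siglecg, an inhibitory lectin of B cells (-0.41 and 1.25). The adaptors Lat (-2.03 and 0.79) and Sit1 (-0.62 and 0.43) had the same signs but did not pass in the Rag line without Rag_SPIC_DOX replicate 3. Sit1 was also named after its values were seen. Vsir, the checkpoint protein VISTA, was at 5.39, 5.55 and 5.49 in Art_shBCLAF1, against 6.50, 6.54 and 6.93 in Art, and at 6.62, 6.65 and 6.60 in Rag_SPIC_DOX_shBCLAF1, against 5.28, 5.35 and 5.34 in Rag_SPIC_DOX. Its groups did not overlap within either line, and Art and Rag_SPIC_DOX_shBCLAF1 were the high ones (interaction -2.48).

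Some single genes of this direction act at the cytoskeleton or membrane, for which no list was tested. Trio (ENSMUSG00000022263), an exchange factor for small GTPases, was at 3.97, 4.12 and 3.97 log2 CPM in Art_shBCLAF1, against 6.22, 6.10 and 6.09 in Art, and at 6.02, 6.11 and 6.08 in Rag_SPIC_DOX_shBCLAF1, against 4.53, 5.01 and 4.74 in Rag_SPIC_DOX. It fell 4.34-fold in the Art line and rose 2.48-fold in the Rag line (interaction -3.43, SE 0.17, adjusted p = 1.65e-06). Fam129c (BCNP1), a B-cell protein, fell by 2.71 in the Art line and rose by 1.19 in the Rag line. Carmil2, a regulator of actin capping that was named after its values were seen, was at 5.88, 5.90 and 5.98 in Art_shBCLAF1, against 8.65, 8.62 and 8.58 in Art, and at 7.54, 7.52 and 7.49 in Rag_SPIC_DOX_shBCLAF1, against 6.63, 6.66 and 6.55 in Rag_SPIC_DOX. Replicates lay close together, and the interaction was -3.60. Hip1r, Iqsec1 and Zdhhc14, which act in endocytosis, ARF-GTPase exchange and protein palmitoylation, had interactions of -2.17, -2.64 and -2.19, and the voltage-gated sodium channel Scn4a one of -2.77.

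Dtx1 and Dtx3, ubiquitin ligases of the Deltex family linked to Notch, were both opposite this way. Dtx1 (ENSMUSG00000029603) was at 1.04, 1.87 and 1.38 log2 CPM in Art_shBCLAF1, against 3.56, 3.64 and 4.74 in Art, and at 3.44, 3.11 and 3.20 in Rag_SPIC_DOX_shBCLAF1, against 0.94, 1.33 and 1.23 in Rag_SPIC_DOX. It fell 5.86-fold in the Art line and rose 4.24-fold in the Rag line without overlap (interaction -4.63, SE 0.44, adjusted p = 6.04e-05). Dtx3 had effects of -1.49 and 1.14, and Lgr5, a WNT-amplifying receptor, -0.84 and 1.13. Of 35 Notch and WNT genes measured, 3 (8.57%) were opposite this way and Jag1 (2.86%) the other way, beside 2.3% and 1.39% of all genes. Ly6d, a surface protein of B-committed progenitors named after its values were seen, fell by 2.40 in the Art line and rose by 2.93 in the Rag line; Art replicate 3, at 6.20 log2 CPM, stood above Art replicates 1 and 2 at 3.70 and 3.50, and without it the fall was 1.53.

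The promoters of Dtx1 and Trio are given as examples of this direction, in the same window, build and capitals as above. Dtx1 lies at chr5:120711620-120711919 and Trio at chr15:28025799-28026098, both on the minus strand.
Dtx1: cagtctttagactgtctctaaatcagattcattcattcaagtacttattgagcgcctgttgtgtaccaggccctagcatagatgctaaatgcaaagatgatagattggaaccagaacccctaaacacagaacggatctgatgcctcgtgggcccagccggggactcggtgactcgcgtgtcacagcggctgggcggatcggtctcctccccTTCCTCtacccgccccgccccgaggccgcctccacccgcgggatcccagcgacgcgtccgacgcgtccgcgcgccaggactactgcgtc
Trio: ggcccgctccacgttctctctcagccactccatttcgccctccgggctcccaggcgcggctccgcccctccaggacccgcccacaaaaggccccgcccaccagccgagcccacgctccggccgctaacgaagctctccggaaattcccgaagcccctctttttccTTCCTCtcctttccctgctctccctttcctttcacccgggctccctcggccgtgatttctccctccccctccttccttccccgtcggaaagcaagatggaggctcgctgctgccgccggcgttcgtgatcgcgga
Each holds GAGGAA once, on the opposite strand, and neither holds TTTGAA. The 266 genes were also richer in GC, with a median GC, taken from each gene's longest GENCODE vM21 transcript, of 54.2% against 48.3% in the 161 genes and 49.9% in all genes, and Art replicate 3 lay 0.19 log2 units above the mean of Art replicates 1 and 2 at the median of the 266 and 0.15 below it at the median of the 161. The part of GC content in the calls was not tested, and without Art replicate 3 256 of the 266 and 157 of the 161 met all 3 tests with the same signs.

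Other functions in this direction were held by few members. Over all genes the interaction passed below 0 in 17% and above 0 in 14.3%, to set beside the list counts here. Gbp4 and Gbp8, interferon-induced guanylate-binding GTPases, had effects of -1.53 and 1.27 and of -0.94 and 1.44, and of 26 interferon-response genes the interaction passed below 0 in 9 and above 0 in none (0 also at an unadjusted p below 0.05 and with voom weights, and 1 without Art replicate 3). The histone genes Hist1h1c (-1.63 and 0.98) and Hist1h2ac (-1.56 and 1.34) are uncertain, since near-identical paralogs can share their reads. The 13 measured replication histones had medians of -0.62 in the Art line and 0.55 in the Rag line. Their interaction passed below 0 in 3 and above 0 in 1, H2afx, not far from the shares of all genes. Among p53 targets, Bax, a death effector, had effects of -0.55 and 0.39 and Aen, a nuclease, -0.46 and 0.90, while Sesn2, a stress sensor, went the other way with 0.53 and -0.49. Of 31 p53 targets the interaction passed below 0 in 12 and above 0 in 2. Without Art replicate 3 it passed below 0 in 20, beside 3215 of the 11551 genes in that fit. Zfp36, which destabilises AU-rich mRNAs, and Ppp1r15a, which ends the integrated stress response, had effects of -0.60 and 0.95 and of -0.35 and 0.78. Slc1a5, a glutamine transporter, was at 7.71, 7.67 and 7.64 log2 CPM in Art_shBCLAF1, against 8.01, 8.03 and 8.27 in Art, and at 9.52, 9.52 and 9.54 in Rag_SPIC_DOX_shBCLAF1, against 7.87, 7.63 and 7.61 in Rag_SPIC_DOX. It fell 1.35-fold in the Art line and rose 3.55-fold in the Rag line (interaction -2.26, SE 0.14).

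**Figure D5:**
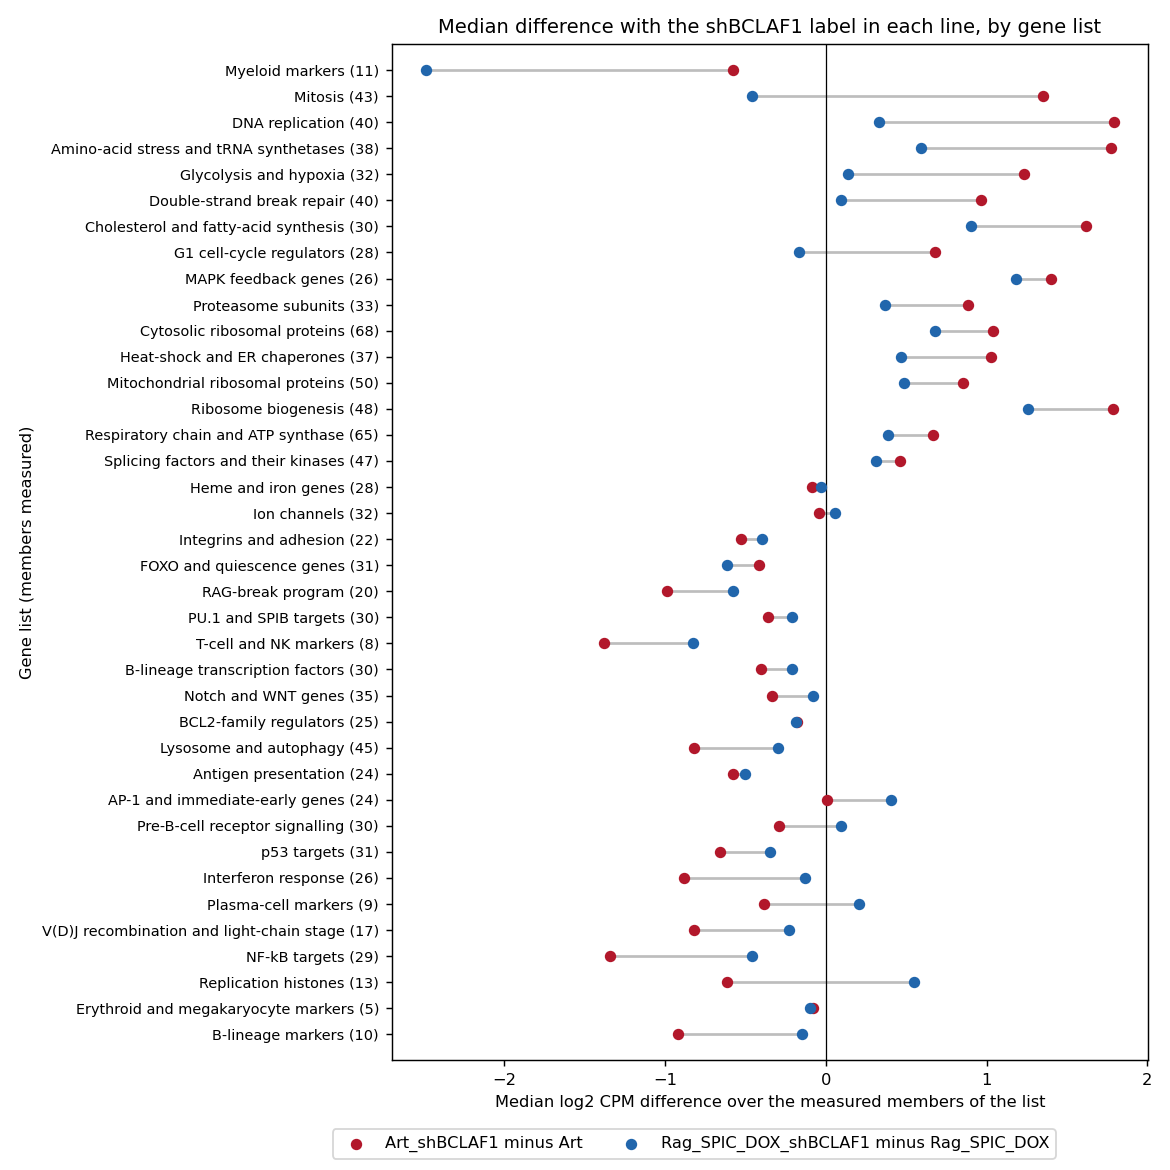
Median log2 CPM difference over the measured members of 38 gene lists in the Art line (red) and the Rag line (blue), ordered by median interaction. The mitosis medians lie on opposite sides of 0, at 1.35 and -0.46. So do those of smaller lists: G1 regulators (0.68 and -0.17), replication histones (-0.615 and 0.55), pre-B-cell receptor signalling (-0.29 and 0.09), plasma-cell markers (-0.38 and 0.21) and ion channels (-0.04 and 0.06).

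Where both lines moved the same way, the size often differed. Over all genes the interaction passed above 0 in 14.3% and below 0 in 17%, to set beside the list counts here. Amino-acid stress and tRNA synthetase genes had an interaction above 0 in 25 of 38 and below 0 in 2, with median effects of 1.77 in the Art line and 0.59 in the Rag line. Psat1, a serine-synthesis enzyme, was at 9.01, 8.66 and 8.88 log2 CPM in Art_shBCLAF1, against 4.33, 4.30 and 4.24 in Art, and at 7.20, 7.19 and 7.23 in Rag_SPIC_DOX_shBCLAF1, against 6.26, 5.24 and 5.64 in Rag_SPIC_DOX. It rose 23.6-fold in the Art line and 2.82-fold in the Rag line (interaction 3.07, SE 0.29, adjusted p = 5.9e-05). NF-kB targets ran the other way, with the interaction below 0 in 13 of 29 and above 0 in 1. Without Rag_SPIC_DOX replicate 2 it passed above 0 in 6, beside 2028 of the 11551 genes in that fit. Tnfaip3, a feedback inhibitor of NF-kB, fell 10.8-fold in the Art line and 2.06-fold in the Rag line (interaction -2.39, SE 0.23). Rag1 fell by 2.76 in the Art line and 1.55 in the Rag line, and its interaction of -1.21 (SE 0.41) only just passed (adjusted p = 0.0444). It did not pass in 10 of the 12 fits that leave out 1 library, with adjusted p-values of 0.0612 to 0.0996 there.

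Among the 75 opposite genes followed singly, picked by the naming rules or after their values were seen, both signs were the same in every alternative fit, including centring each library on its median, which put the median effect over all genes at -0.18 in the Art line and -0.05 in the Rag line, against 0.05 in both as deposited. After that centring 59 of the 75 still met all 3 tests, and 47 of the 75 did so whichever single library was left out. Losses arose when a library of either Rag group was left out for Ckap2l (opposite in 7 of 12 fits), Cep55 (9), H2afx (9), Mxd3 (11), Itgb7 (10), Sit1 (7) and Bax (10). They arose when an Art_shBCLAF1 library was left out for Ptprcap (10), Aen (11) and Ppp1r15a (11), and with libraries of both lines for Prr11 (3), Cntln (4), Fcer1g (3) and Lat (4). Without Art replicate 3 the Art-line difference was also over 1.5 times smaller for Cenpa (0.68), Ckap2l (0.79), Prr11 (0.82), Aen (-0.27) and Ptprcap (-0.29).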

How the data were processed

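RNA-seq was measured in 15 libraries in 5 groups, of which 4 groups of 3 entered here. The authors deposited log2 CPM values for each library and, for their own comparisons, log2 fold changes and p-values, per the file headers. The submitters' processing notes name mm9, Subread, featureCounts 1.4.5, edgeR and limma, with no roles stated. The deposited log2 values fit (reads + 0.5) scaled to the effective library size: with that offset, 100% of values under 1000 reads came out whole within 0.05, so reads and depths could be recovered. The 4 tables were joined on gene ID to 11551 genes (152 repeated entries within tables were merged; 4 symbols have more than one ID). These tables hold genes the authors listed as changed, with adjusted p-values up to 0.0499, so genes changed in no comparison of theirs were not analysed here. The number of per-sample columns left unused was 0. Art replicate 3's column differs by 1 character from its label.

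The deposited log2 values of the 12 libraries were modelled with limma 3.58.1 (R 4.3.3), using 4 group means and a mean-variance trend, with Benjamini-Hochberg adjustment over all 11551 genes and a call at an adjusted p below 0.05. Fold changes come from log2(CPM with the offset), which understates changes of low genes. Opposite genes passed the interaction and both single-line tests with different signs. Genes were named by fixed ranks of effect and by membership of 38 lists; those said to be named after their values were seen, and the TTTGAA motif, were added later. Members, lists and rules were chosen with earlier results of these data known. Alternatives were leaving out libraries, sample weights, voom on the recovered reads, the replicate block, centring, quantile normalisation, a low-value filter, another pseudocount and stricter thresholds. Promoters are from RefSeq GRCm38.p6 and matched by symbol; since the files use mm9, no other coordinates are given. The fit was tested on simulated data. Results for some genes are not reported here. Python 3.11.15 was used for summaries.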

Additional observations from a re-analysis of the deposited data

Results flagged for a closer look

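The effect of the shBCLAF1 label differed between the lines in 3621 genes by limma's interaction test, and in 427 of these both lines passed with opposite signs. The interaction, which is the label's log2 effect in the Art line minus that in the Rag line, is given here for genes named above that passed this test.

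Among mitosis and cell-cycle genes it was 1.58 for Bub1b, 1.70 for Ccnb2, 1.95 for Cenpa, 2.13 for Cep55, 2.23 for Ckap2l, 1.37 for Foxm1, 1.53 for Kif2c, 2.61 for Nusap1, 2.07 for Prr11, 1.98 for Cntln, 1.47 for Cdkn2c and 1.74 for Mxd3, and in repair and replication 1.58 for H2afx, 1.46 for Rad51b, 2.32 for Gins1 and 3.0 for Pole2. Positive values were also found for Arhgap19 (2.02), Cyp2c55 (2.91), Jag1 (2.02), Sesn2 (1.02), Psat1 (3.07) and Itgb7 (4.17). Genes known from myeloid or antigen-presenting cells had 5.49 (Axl), 5.28 (C3ar1), 5.47 (Ccr1), 2.11 (Fcgr3), 2.36 (Fcer1g), 4.89 (H2-Aa), 7.30 (Ly86), 5.67 (S100a4) and 6.37 (Tbxas1), and Itgam had -2.50.

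Negative values in transcription and signalling were -3.50 for Spib, -1.86 for Ikzf3, -3.03 for Gfi1, -3.98 for Lax1, -1.83 for Rasgrp2, -1.52 for Ptprcap, -1.66 for Siglecg, -2.81 for Lat, -1.05 for Sit1, -2.48 for Vsir, -2.39 for Tnfaip3 and -1.21 for Rag1. Among cortex, membrane and Notch or WNT genes they were -3.43 for Trio, -3.90 for Fam129c, -3.60 for Carmil2, -2.17 for Hip1r, -2.64 for Iqsec1, -2.19 for Zdhhc14, -2.77 for Scn4a, -4.63 for Dtx1, -2.63 for Dtx3, -1.98 for Lgr5 and -5.33 for Ly6d. The remaining ones were Gbp4 (-2.79), Gbp8 (-2.38), Hist1h1c (-2.61), Hist1h2ac (-2.90), Bax (-0.94), Aen (-1.36), Zfp36 (-1.55), Ppp1r15a (-1.13) and Slc1a5 (-2.26).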

How the results depend on the processing

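With 1 library left out at a time, the number of line-dependent genes ranged from 2674 to 6286, opposite genes from 256 to 1012 (92 to 433 higher in Art_shBCLAF1, 163 to 579 higher in Rag_SPIC_DOX_shBCLAF1), and calls from 5955 to 8870 in the Art line and 2710 to 7132 in the Rag line. The 7132 Rag-line calls, against 3957 in all libraries, came without Art replicate 3, a library of the other line that enters the shared spread. Counts of opposite genes moved by over 1.5 times without Art replicate 3 (1012), Rag_SPIC_DOX replicate 3 (261) or any Rag_SPIC_DOX_shBCLAF1 library (256, 265 and 272 without replicates 1, 2 and 3). Weighting libraries by their spread raised the interaction calls to 9159, opposite genes to 2215 (898 and 1317) and Rag-line calls to 10146, and the same with voom weights gave 8602, 1867 (744 and 1123) and 9386. In that weighting, whose iteration did not converge, Rag_SPIC_DOX replicate 3 took 99.9% of its group's weight and Art replicate 3 took 0.197%. Leaving out both Art replicate 3 and Rag_SPIC_DOX replicate 2, an alternative chosen after seeing the data, gave 7458 interactions, 1311 opposite genes (572 and 739) and 6991 Rag-line calls. Stricter rules lowered the opposite genes by construction, to 181 (61 and 120) at an adjusted p below 0.01 and to 101 (29 and 72) with both effects of at least 1 log2 unit. Centring on medians put the median interaction at -0.10, against 0.03 as deposited, and the share of interaction calls above 0 at 37.4%, against 45.6%, and quantile normalisation put 45.7% of opposite genes in the direction higher in Art_shBCLAF1, against 37.7%. The cause of these shifts was not tested.

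When replicate numbers entered as a block, interactions passed in 3395 genes and 372 were opposite. Same-numbered libraries deviated together with correlations of -0.13, 0.11 and 0.03 in the Art line and -0.05, -0.02 and 0.01 in the Rag line, so the numbers do not pair the libraries.

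For 110 named genes under 23 alternatives, 2452 of 2517 values kept direction and side of the threshold, 47 no longer passed, 18 newly passed and 0 reversed; the losses were in Rpl14, Bcat1, Rps2, Rag1, Hbb-bt and Bcl2a1b. In simulated data for 11551 genes, 100 genes were given an interaction of 1 log2 unit and 100 one of 2, split evenly between the lines with opposite signs. The interaction was called in 45% and 76% of them, and they were called opposite in 12% and 48%. Among the unchanged genes 66 interactions and 0 opposite genes were called. Opposite effects of these sizes can thus be missed at this depth and spread. False interaction calls were also a larger share of the calls in the simulation than the adjusted p threshold allows for. The 66 false calls stood beside 45 and 76 true ones, from 100 genes given each size. Far fewer genes were changed there than were called in the data, so these rates need not hold for the data.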
